A study of Homo sapiens with 83 samples.

Results

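The genes described are the semaphorins, their plexin receptors and the neuropilin co-receptors in 2 human neuroblastoma cell lines, SHEP and SKNAS. Members were taken by symbol, as every gene of semaphorin classes 3 to 7, of plexins A to D and of the neuropilins. The rule found 31 of the 60237 genes in the table, which were 20 semaphorins, 9 plexins and 2 neuropilins. A mean of at least 1 TPM (a transcript level corrected for transcript length and library total) in either line was reached by 27 members, of which 21 were tested in SHEP, 26 in SKNAS and 20 in both. The remaining 4, SEMA3G, SEMA4A, SEMA5B and PLXNA4, stayed below that mean in both lines and were counted as silent.

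All cells carried N-MYC-ER, N-MYC fused to an estrogen receptor domain that is made constantly and enters the nucleus when 4-hydroxytamoxifen (4OHT) is added. MYC-ON cells received 0.5 µM 4OHT and MYC-OFF cells received ethanol. After 24 h of either, every culture was given 0.1 µM dexamethasone to set the circadian clock, and RNA was collected from 24 h later every 4 h, so that circadian time (CT) counts hours from dexamethasone. SHEP was sampled from CT24 to CT76 in 2 replicate experiments, giving 28 MYC-OFF and 28 MYC-ON libraries. SKNAS was sampled in 1 experiment, from CT24 to CT76 for 14 MYC-OFF libraries and to CT72 for 13 MYC-ON libraries. Dexamethasone was shared by all groups, 4OHT was given to no control, and whether each line is a clone is not given in the sources used here.

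Semaphorins are guidance ligands that were first described as repellents of growing axons. Class 3 members are secreted, classes 4 to 6 span the membrane and SEMA7A is held at the surface by a lipid anchor. Plexins are the signalling receptors, whose intracellular part acts on small GTPases such as those of the Ras family, and most class 3 ligands also need a neuropilin to bind. NRP1 and NRP2 are shared with vascular endothelial growth factors, and the family is known in neural crest cells, from which neuroblastoma arises, for steering their migration.

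Stretches of 250 bases before the annotated start are shown for genes that moved in opposite directions, moved down in both lines or held a MYC-type E-box. The E-box CACGTG is the sequence that MYC-MAX dimers are best known to bind. The sequences are RefSeq's (GRCh38.p14), written 5′ to 3′ along the gene, with every CANNTG in capitals. A promoter entry was found for 27 of the 31 members, in 48 windows, and not for NRP1, SEMA3A, SEMA6A and SEMA6B. NRP2 lies at chr2:205682251-205682500 (plus strand), SEMA3C at chr7:80922390-80922639 (minus strand), PLXNA3 at chrX:154458031-154458280 (plus strand), SEMA4C at chr2:96870081-96870330 (minus strand) and SEMA6D at chr15:47183839-47184088 (plus strand). SEMA3C has 2 such windows and SEMA6D has 3, and the ones shown lie outside annotated exons (Gencode v44), while the window of NRP2 holds 1 annotated exon base.
NRP2: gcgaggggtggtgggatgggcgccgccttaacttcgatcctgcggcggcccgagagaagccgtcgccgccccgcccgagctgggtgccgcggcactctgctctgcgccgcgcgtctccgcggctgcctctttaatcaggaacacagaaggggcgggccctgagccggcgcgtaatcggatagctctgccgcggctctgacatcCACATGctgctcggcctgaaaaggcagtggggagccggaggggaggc
SEMA3C: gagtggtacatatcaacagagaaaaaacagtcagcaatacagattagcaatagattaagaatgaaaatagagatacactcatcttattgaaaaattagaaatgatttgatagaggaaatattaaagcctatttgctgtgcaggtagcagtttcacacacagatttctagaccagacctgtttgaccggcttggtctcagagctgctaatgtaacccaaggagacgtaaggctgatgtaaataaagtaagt
PLXNA3: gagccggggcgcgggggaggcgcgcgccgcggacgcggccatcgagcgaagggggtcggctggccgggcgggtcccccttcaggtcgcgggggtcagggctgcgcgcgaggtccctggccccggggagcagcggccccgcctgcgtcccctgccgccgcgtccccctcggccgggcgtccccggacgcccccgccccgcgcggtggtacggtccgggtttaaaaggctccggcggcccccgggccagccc
SEMA4C: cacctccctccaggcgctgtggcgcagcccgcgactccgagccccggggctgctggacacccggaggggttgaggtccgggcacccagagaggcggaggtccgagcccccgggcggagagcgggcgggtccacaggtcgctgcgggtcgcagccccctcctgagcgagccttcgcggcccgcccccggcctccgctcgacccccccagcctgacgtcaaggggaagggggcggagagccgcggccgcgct
SEMA6D: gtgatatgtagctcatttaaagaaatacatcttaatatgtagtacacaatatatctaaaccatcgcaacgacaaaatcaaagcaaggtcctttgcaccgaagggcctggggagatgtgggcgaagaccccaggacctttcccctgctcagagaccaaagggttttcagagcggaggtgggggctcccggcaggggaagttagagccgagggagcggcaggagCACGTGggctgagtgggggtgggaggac

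The letters CACGTG, which read the same on both strands, stood in 3 of the 48 windows, or 6.25%, against 6.34% of all 35116 promoters. They lay 28 bases before the start of SEMA6D, 45 before SEMA3E and 50 before SEMA4D. CACGCG was searched on both strands and found in 2.08% of the members' windows and 9.72% of all. The looser CANNTG, which includes CACGTG, stood in 52.1% against 61.8%. None of the windows shown for NRP2, SEMA3C, PLXNA3 and SEMA4C held CACGTG. These matches describe letters in a short window and say nothing of what binds there.

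The SHEP libraries resembled each other, with a median gene between 3.93 and 4.17 on the log2(TPM + 1) scale over genes tested. In SKNAS this median ran from 2.97 to 4.38 in MYC-OFF and from 2.76 to 4.25 in MYC-ON, and it was under 3.3 in 7 libraries, 3 of them MYC-OFF and 4 MYC-ON. TPM keeps no sequencing depth, so the depth is unknown. Time points served as the replicates within a line, so p-values measure the spread between libraries, and in SKNAS between libraries of a single experiment. The SKNAS counts are therefore given also without those 7 libraries and with the library median as a covariate. The same is done for the changes of some members, and the others stand as deposited only. The part that library quality played in the SKNAS results was not tested. MYCN itself does not check the labels, since the fusion gene is transcribed in every group. Its median went from 560 TPM without to 353 TPM with 4OHT in SHEP, and in SKNAS from 612 to 309 TPM. Of 10 adrenergic neuroblastoma markers, 7 were tested between the lines in MYC-OFF, with 6 higher and 1 lower (CHGB, -0.94 on the log2 scale) in SKNAS. PHOX2A had a median of 235 TPM in SKNAS MYC-OFF and was listed at a median of 0 in SHEP. Of 8 mesenchymal markers, 6 were lower in SKNAS, among them VIM with medians of 3393 TPM in SHEP MYC-OFF and 1576 in SKNAS MYC-OFF, while PRRX1 (5.24) and TWIST1 (1.38) were higher in SKNAS.

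Both lines expressed ligands, receptors and co-receptors, but through different genes. In SHEP MYC-OFF the most abundant members were SEMA3C (222 ± 41.4 TPM, SD, n = 28), PLXNB2 (181 ± 14.1), NRP1 (166 ± 16.1), NRP2 (145 ± 15.4) and SEMA7A (83.1 ± 30.5). In SKNAS MYC-OFF they were PLXND1 (76.97 ± 21.07 TPM, SD, n = 14), NRP1 (58.6 ± 29.8), PLXNB2 (35.2 ± 9.35), PLXNA3 (32.5 ± 20.4) and SEMA3C (27.6 ± 16.0). TPM is corrected for length, so these levels can be set beside each other. Neighbours in either of these orders overlapped in their ranges.

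**Figure D1:**
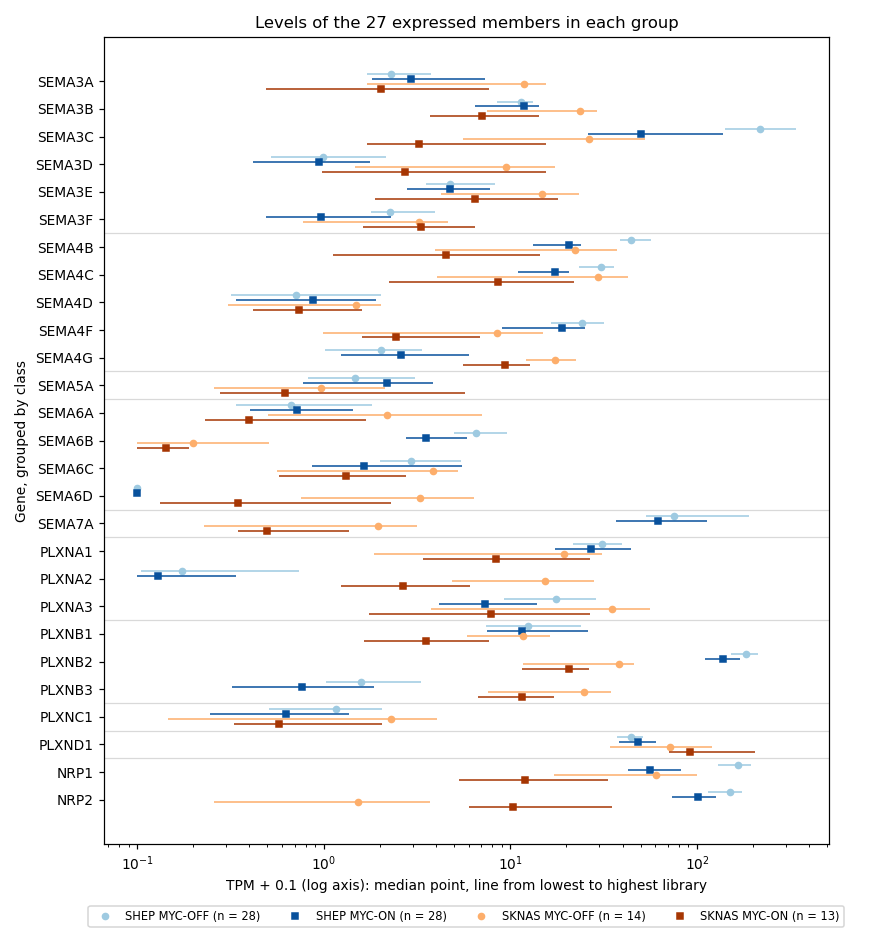
TPM of the 27 expressed members (TPM + 0.1, log axis) in the 4 groups, with a point at the median and a line from the lowest to the highest library. The MYC-OFF and MYC-ON lines of SKNAS overlap for every member shown except NRP2, and those of SHEP are apart for SEMA3C, SEMA4B, SEMA4C and NRP1.

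The make-up of each family changed with N-MYC-ER activation. SEMA3C held 90.6% ± 1.49 (SD, n = 28) of the class 3 TPM in SHEP MYC-OFF libraries and 70.8% ± 9.50 in MYC-ON libraries. In SKNAS MYC-OFF its share was 29.4% ± 7.99 (SD, n = 14), and in MYC-ON the leading class 3 gene was SEMA3B with 29.7% ± 10.98 (n = 13). Summed class 3 TPM went in SHEP from 245 ± 41.99 with MYC-OFF to 79.8 ± 27.95 with MYC-ON. The same sum went in SKNAS from 86.6 ± 35.6 to 30.8 ± 17.7. NRP2 made up 46.7% ± 2.70 of the neuropilin TPM in SHEP MYC-OFF (42.5 to 52.0%) and 63.4% ± 5.31 in MYC-ON (54.1 to 72.6%). In SKNAS it made up 2.54% ± 2.22 (0.699 to 9.84%) with MYC-OFF and 47.8% ± 8.07 (35.2 to 61.2%) with MYC-ON. The NRP2 share was thus higher in MYC-ON in both lines with no overlap of the groups, with NRP2 at -0.51 and NRP1 at -1.49 on the log2(TPM + 1) scale in SHEP, and NRP2 higher and NRP1 lower in SKNAS.

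**Figure D2:**
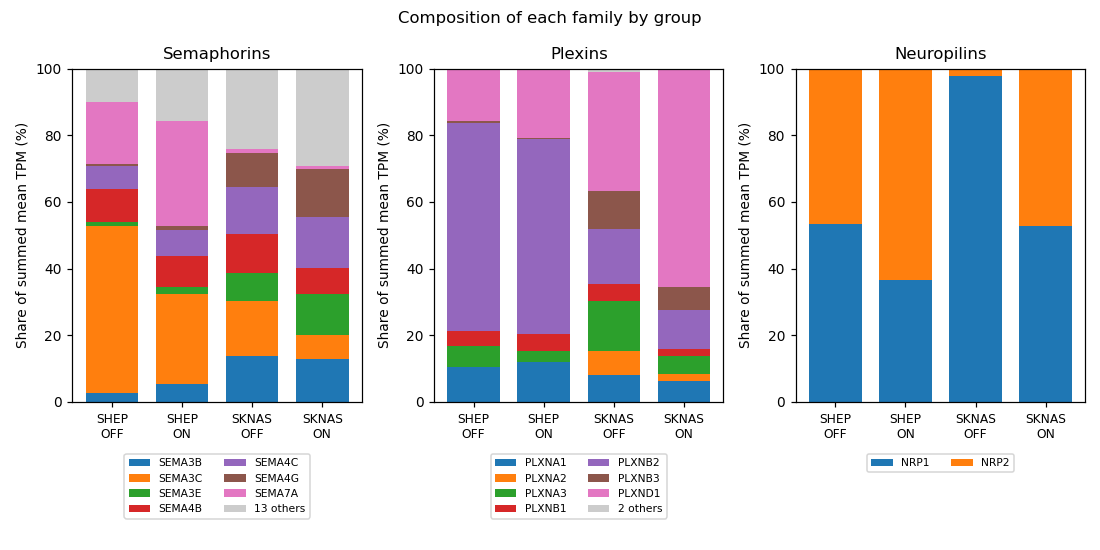
Share of the summed mean TPM (%) taken by each semaphorin, plexin and neuropilin in the 4 groups, with the 7 largest genes of a family in colour and the others in grey. PLXNB2 takes 62.6% of plexin TPM in SHEP MYC-OFF and PLXND1 takes 65.0% in SKNAS MYC-ON, and NRP2 goes from 2.33 to 47.2% of neuropilin TPM in SKNAS.

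The lines were first set against each other in MYC-OFF. SKNAS was higher for 12 and lower for 11 of the 27 members, where 33.5% and 45.6% of all genes tested were called higher and lower. A call was an adjusted p of at most 0.05 with a change of at least 0.15 on the log2(TPM + 1) scale. NRP2 stood lowest in SKNAS, at -6.02 ± 0.11 (SE; limma, adjusted p = 2.83e-30), and SEMA7A followed at -4.96 ± 0.14 (adjusted p = 3.90e-25). NRP2 lay between 114 and 174 TPM in SHEP, and between 0.157 and 3.62 TPM in SKNAS. SEMA7A lay between 53.5 and 189 TPM in SHEP, and between 0.128 and 3.06 TPM in SKNAS. Both genes were therefore separated in every library. SEMA3C was -3.24 ± 0.18, SEMA6B -2.80 ± 0.059 and PLXNB2 -2.39 ± 0.10 in SKNAS against SHEP. In the other direction, PLXNA2 was higher by 3.72 ± 0.14, PLXNB3 by 3.31 ± 0.12, SEMA4G by 2.61 ± 0.078 and SEMA3D by 2.05 ± 0.18. PLXNA2 did not exceed 0.637 TPM in any SHEP MYC-OFF library, and SEMA6D was listed at 0 in all 56 SHEP libraries while its SKNAS MYC-OFF median was 3.17 TPM. The calls for PLXNC1 (0.42) and SEMA4C (-0.56) were lost when either SHEP replicate was left out, and that for SEMA4C also without the 7 SKNAS libraries (-0.098). Line and experiment cannot be told apart here, since each line was grown in its own experiments.

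N-MYC-ER activation was followed by lower levels of most members in both lines. In SHEP 3 members rose and 13 fell, where 33% and 38.9% of all genes tested were called in those directions. The 7 members past 1.5-fold (0.66 on the log2 scale) were all lower, where 11.4% of genes were lower and 9.39% higher by that much. In SKNAS 1 member rose and 20 fell, all of them past 1.5-fold. There 13.7% of genes rose and 34.4% fell, and 6.97% and 23.8% did so past 1.5-fold. The median change was -0.39 for members and -0.036 for all genes in SHEP, and -0.93 and -0.29 in SKNAS. Rescaling SKNAS by median-of-ratios factors moved those SKNAS medians to -0.62 and 0.032, and then 3 members rose and 20 fell, 2 and 11 of them past 1.5-fold. With the library median as a covariate 4 rose and 17 fell, again 2 and 11 past 1.5-fold. Without the 7 low libraries 1 rose and 18 fell, 1 and 17 of them past 1.5-fold.

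The lines shared 10 members that fell in both, namely NRP1, PLXNA3, PLXNB2, PLXNB3, SEMA3C, SEMA4B, SEMA4C, SEMA4F, SEMA6C and SEMA7A. The SHEP call of SEMA7A was lost when either replicate was left out. How many of all genes fell in both lines was not counted, so nothing particular to the members is read from the 10. No member was called higher in both as deposited, whereas PLXND1 was with rescaling, at 0.17 in SHEP and 0.83 in SKNAS. SEMA5A rose in SHEP, and in SKNAS it was called higher only with the covariate, at 0.46. NRP2 fell in SHEP and rose in SKNAS, and SEMA3A and SEMA4G rose in SHEP and fell in SKNAS. The SHEP call of SEMA3A was lost when either replicate was left out. That of SEMA4G was lost without replicate 2, and that of SEMA5A without replicate 1. PLXNA1, a receptor for class 3 and class 6 ligands, and PLXND1, the receptor of SEMA3E, were called in neither line as deposited. Over the 20 members tested in both lines, the MYC effect in SKNAS minus that in SHEP was higher for 3 and lower for 11, where 10.7% and 38.7% of the genes tested in both lines were so called. That fit used 1 spread per gene for both lines, which can make its p-values too small, since SKNAS libraries varied more. PLXNB3 is among the 11, and its low level in SHEP (mean 1.15 TPM) limits its change there on this scale. With the library median as a covariate 3 were higher and 6 lower, the calls of PLXND1, SEMA3E, SEMA4B, SEMA4F, SEMA7A and NRP1 were lost and SEMA3C was gained. The other 7 members were tested in 1 line, and their low level in the other line limits the change there on this scale, so that no difference of the MYC effect was read from them. Counting them, 4 of 27 were higher and 16 lower, where 13.5% and 38% of genes were so called.

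**Figure D3:**
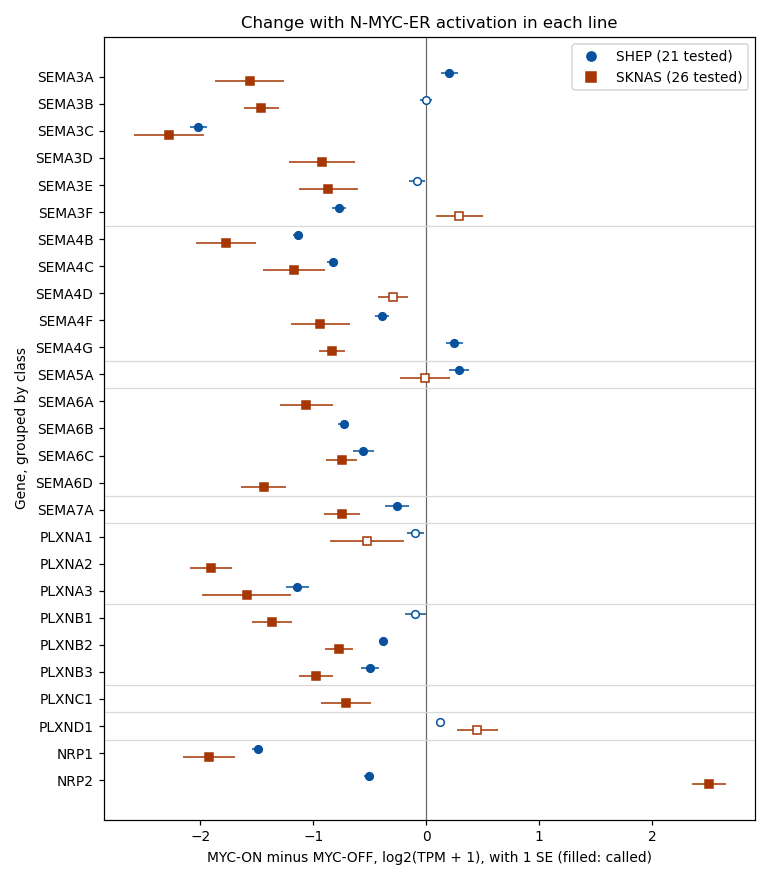
Change from MYC-OFF to MYC-ON on the log2(TPM + 1) scale with 1 SE for SHEP (circles) and SKNAS (squares), filled where called. Most points lie left of 0, and NRP2 in SKNAS at 2.50 lies farthest to the right, before PLXND1 in SKNAS at 0.45.

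Groups were also compared library by library. In SHEP every MYC-ON library lay below every MYC-OFF library for 4 members, SEMA3C, SEMA4B, SEMA4C and NRP1, and for none did every one lie above. Over all genes, 6.36% were separated downward and 6.11% upward. In SKNAS NRP2 was the only member separated, upward, where 2.32% of genes were separated upward and 2.09% downward.

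The secreted class 3 ligands were led by SEMA3C, which signals through both neuropilins and is known for guiding neural crest cells. In SHEP it ran from 141 through a median of 218 to 339 TPM in MYC-OFF and from 26.1 through 50.2 to 139 TPM in MYC-ON. It fell by 2.02 ± 0.077 on the log2(TPM + 1) scale (limma, adjusted p = 6.01e-27) and was lower in all 28 pairs of libraries of the same replicate and CT. In SKNAS it ran from 5.47 through 26.3 to 52.6 TPM in MYC-OFF and from 1.60 through 3.15 to 15.4 TPM in MYC-ON. There it fell by 2.28 ± 0.31 (adjusted p = 3.02e-05), lower in 13 of 13 pairs, although the groups overlapped. Without the 7 low libraries the SKNAS change was -2.50, and with the covariate it was -1.57. The difference of the SEMA3C change between lines was -0.26 ± 0.23 (adjusted p = 0.335) and was not called, whereas with the covariate it was called at 0.35 (adjusted p = 0.0498).

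SEMA3F, a ligand that prefers NRP2, fell in SHEP but not in SKNAS. It ran from 1.70 through 2.16 to 3.85 TPM in SHEP MYC-OFF and from 0.389 through 0.865 to 2.20 TPM in MYC-ON. The change was -0.77 ± 0.060 (adjusted p = 7.58e-16), with 27 of 28 pairs lower. In SKNAS it ran from 0.678 through 3.16 to 4.56 TPM in MYC-OFF and from 1.53 through 3.23 to 6.40 TPM in MYC-ON, a change of 0.29 ± 0.21 (adjusted p = 0.251) with 7 of 13 pairs higher. The difference between lines was 1.06 ± 0.15 (adjusted p = 6.26e-08). In SKNAS the change became a call, at 0.59 with rescaling and 0.79 with the covariate.

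SEMA3B, described as a tumor suppressor in lung cancer, showed the reverse. In SHEP its median was 11.3 TPM in MYC-OFF (8.37 to 13.2) and 11.7 TPM in MYC-ON (6.39 to 14.1), a change of -0.0026 ± 0.054 that was not called and turned to 0.040 with rescaling. In SKNAS it ran from 7.39 through 23.4 to 28.9 TPM in MYC-OFF and from 3.61 through 6.94 to 14.1 TPM in MYC-ON. It fell by 1.46 ± 0.15 (adjusted p = 2.18e-06) in 13 of 13 pairs, and the change was -1.42 without the low libraries and -1.45 with the covariate. The lines differed by -1.46 ± 0.12 (adjusted p = 1.62e-15). SEMA3F and SEMA3B lie 78.5 kb apart on chromosome 3 (GRCh38, plus strand, 50155045 to 50189075 and 50267558 to 50277546 in Gencode v44). SEMA3F was called lower in SHEP alone and SEMA3B in SKNAS alone.

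SEMA3A, the first described growth cone repellent, SEMA3E, which binds PLXND1 without a neuropilin, and SEMA3D were called lower in SKNAS. SEMA3A ran from 1.60 through 2.20 to 3.65 TPM in SHEP MYC-OFF and from 1.72 through 2.86 to 7.22 TPM in MYC-ON, a rise of 0.20 ± 0.076 (adjusted p = 0.0146) with 20 of 28 pairs higher. This call was lost when either replicate was left out and with series means, the means of each replicate experiment over CT. In SKNAS SEMA3A ran from 1.61 through 11.8 to 15.4 TPM in MYC-OFF and from 0.392 through 1.93 to 7.61 TPM in MYC-ON, a change of -1.56 ± 0.31 (adjusted p = 0.000685) with 11 of 13 pairs lower, and -0.80 with the covariate. SEMA3E had SHEP medians of 4.63 TPM in MYC-OFF (3.43 to 8.17) and 4.62 TPM in MYC-ON (2.70 to 7.71), a change of -0.082 ± 0.070. In SKNAS SEMA3E ran from 4.18 through 14.7 to 23.1 TPM in MYC-OFF and from 1.77 through 6.34 to 17.8 TPM in MYC-ON. Its change was -0.87 ± 0.26 (adjusted p = 0.0134, 10 of 13 pairs lower). SEMA3D, not tested in SHEP, ran from 1.37 through 9.43 to 17.3 TPM in SKNAS MYC-OFF and from 0.880 through 2.63 to 15.5 TPM in MYC-ON, a change of -0.92 ± 0.29 (adjusted p = 0.0168, 9 of 13 pairs lower). The SKNAS calls of SEMA3D and SEMA3E were lost without the 7 libraries (-0.99 and -0.76) and with the covariate (-0.24 and -0.25). The lines differed by -1.77 ± 0.22 for SEMA3A and -0.78 ± 0.19 for SEMA3E. SEMA3C, SEMA3E, SEMA3A and SEMA3D lie in this order on the minus strand of chromosome 7 between 80742538 and 85187056, with 2440 kb between SEMA3C and SEMA3E. Of the 3 tested in SHEP only SEMA3C fell there.

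Class 4 ligands span the membrane and mostly act on plexins of the B family. SEMA4B ran from 38.4 through 44.5 to 56.7 TPM in SHEP MYC-OFF and from 13.1 through 20.5 to 23.7 TPM in MYC-ON. It fell by 1.14 ± 0.045 (adjusted p = 2.44e-26) in 28 of 28 pairs. SEMA4C, a ligand of PLXNB2, ran from 23.3 through 30.6 to 35.8 TPM in SHEP MYC-OFF and from 10.9 through 17.2 to 20.5 TPM in MYC-ON, a change of -0.83 ± 0.049 (adjusted p = 4.94e-20) in 28 of 28 pairs. Neither gene overlapped between the SHEP groups. In SKNAS SEMA4B ran from 3.85 through 21.997 to 37.4 TPM in MYC-OFF and from 1.02 through 4.40 to 14.4 TPM in MYC-ON, and fell by 1.77 ± 0.27 (adjusted p = 7.19e-05, 12 of 13 pairs). SEMA4C there ran from 3.95 through 29.4 to 42.8 TPM and from 2.13 through 8.52 to 21.9 TPM, and fell by 1.17 ± 0.28 (adjusted p = 0.00283, 11 of 13 pairs). The SKNAS groups overlapped for both, and the covariate brought the changes to -1.13 and -0.49.

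SEMA4F fell in both lines and SEMA4G did not. SEMA4F ran from 16.5 through 24.2 to 31.6 TPM in SHEP MYC-OFF and from 8.87 through 18.9 to 25.1 TPM in MYC-ON, a change of -0.39 ± 0.062 (adjusted p = 2.31e-07, 24 of 28 pairs). In SKNAS it ran from 0.894 through 8.39 to 14.8 TPM and from 1.51 through 2.34 to 6.76 TPM, a change of -0.94 ± 0.26 (adjusted p = 0.00797, 10 of 13 pairs). SEMA4G ran from 0.911 through 1.93 to 3.25 TPM in SHEP MYC-OFF and from 1.13 through 2.49 to 5.90 TPM in MYC-ON, a rise of 0.25 ± 0.076 (adjusted p = 0.00306, 20 of 28 pairs). In SKNAS, where SEMA4G was more abundant, it ran from 12.03 through 17.3 to 22.5 TPM and from 5.48 through 9.27 to 12.6 TPM, a change of -0.83 ± 0.12 (adjusted p = 3.67e-05, 13 of 13 pairs). The lines differed for SEMA4G by -1.08 ± 0.13 (adjusted p = 8.97e-10). The SHEP call of SEMA4G was lost without replicate 2, whereas its SKNAS change was -0.71 without the low libraries and -0.74 with the covariate. SEMA4D, the PLXNB1 ligand, was tested in SKNAS alone, where its change of -0.30 ± 0.14 was not called.

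In the membrane-spanning classes 5 and 6 and the anchored class 7, SEMA5A rose by 0.29 ± 0.091 in SHEP from a median of 1.37 to 2.10 TPM (adjusted p = 0.00415), a call lost without replicate 1 and with series means. In SKNAS its change of -0.014 was not called, and with the covariate it became a call of 0.46. SEMA6B, expressed in SHEP, ran from 4.92 through 6.42 to 9.48 TPM in MYC-OFF and from 2.66 through 3.41 to 5.73 TPM in MYC-ON. It fell by 0.73 ± 0.051 (adjusted p = 1.80e-17) in 28 of 28 pairs. SEMA6B was at most 0.407 TPM in SKNAS, so its change there could not be read. SEMA6C fell by 0.56 ± 0.093 in SHEP (adjusted p = 8.31e-07), from a median of 2.84 to 1.55 TPM. In SKNAS SEMA6C ran from 0.464 through 3.75 to 5.18 TPM in MYC-OFF and from 0.474 through 1.21 to 2.67 TPM in MYC-ON, a change of -0.75 ± 0.14 (adjusted p = 0.000378, 12 of 13 pairs).

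SEMA6A and SEMA6D, ligands of A plexins, were tested in SKNAS alone. SEMA6A ran from 0.405 through 2.07 to 6.99 TPM in MYC-OFF and from 0.133 through 0.297 to 1.59 TPM in MYC-ON, a change of -1.06 ± 0.23 (adjusted p = 0.00181, 12 of 13 pairs). SEMA6D ran from 0.653 through 3.17 to 6.26 TPM and from 0.0331 through 0.246 to 2.21 TPM, a change of -1.44 ± 0.20 (adjusted p = 3.25e-05, 13 of 13 pairs). At these low levels the added 1 TPM shrinks the fold, and with an added 0.1 TPM the changes were -1.93 and -2.73. SEMA7A, which binds PLXNC1 and β1 integrin, ran from 53.5 through 75.6 to 189 TPM in SHEP MYC-OFF and from 36.9 through 61.6 to 113 TPM in MYC-ON. Its change of -0.26 ± 0.11 (adjusted p = 0.0282) was lost when either replicate was left out, with series means, with rescaling and with no filter on level. In SKNAS SEMA7A ran from 0.128 through 1.85 to 3.06 TPM and from 0.246 through 0.398 to 1.27 TPM, a change of -0.74 ± 0.16 (adjusted p = 0.00136, 12 of 13 pairs).

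Among A plexins, which signal for class 3 ligands together with neuropilins, PLXNA3 fell in both lines. It ran from 9.10 through 17.5 to 28.7 TPM in SHEP MYC-OFF and from 4.07 through 7.21 to 13.7 TPM in MYC-ON, a change of -1.14 ± 0.10 (adjusted p = 5.86e-14) in 28 of 28 pairs. In SKNAS it ran from 3.68 through 35.1 to 55.97 TPM and from 1.64 through 7.82 to 26.7 TPM, a change of -1.59 ± 0.39 (adjusted p = 0.00391, 11 of 13 pairs) that was -0.59 with the covariate. PLXNA2, all but absent from SHEP, ran from 4.78 through 15.3 to 28.1 TPM in SKNAS MYC-OFF and from 1.14 through 2.56 to 5.999 TPM in MYC-ON. It fell by 1.91 ± 0.18 (adjusted p = 9.88e-07) in 13 of 13 pairs, and the change was -2.10 without the low libraries and -1.58 with the covariate. PLXNA1 changed by -0.098 ± 0.074 in SHEP and -0.52 ± 0.33 in SKNAS, and the latter turned to a call of 0.30 with the covariate.

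The B plexins bind class 4 ligands. PLXNB2, the most abundant plexin of SHEP, ran from 152 through 184 to 214 TPM in MYC-OFF and from 111 through 139 to 170 TPM in MYC-ON, a change of -0.39 ± 0.034 (adjusted p = 3.34e-14) in 28 of 28 pairs. In SKNAS PLXNB2 ran from 11.6 through 38.2 to 45.9 TPM and from 11.4 through 20.6 to 26.4 TPM, a change of -0.77 ± 0.12 (adjusted p = 0.000124, 12 of 13 pairs). PLXNB1, the SEMA4D receptor, had SHEP medians of 12.3 and 11.5 TPM and a change of -0.097 ± 0.094 that was not called. In SKNAS PLXNB1 ran from 5.75 through 11.5 to 16.2 TPM and from 1.55 through 3.46 to 7.62 TPM, a change of -1.36 ± 0.18 (adjusted p = 1.94e-05, 13 of 13 pairs), and the lines differed by -1.26 ± 0.18 (adjusted p = 3.76e-08). PLXNB3 fell by 0.50 ± 0.078 in SHEP (adjusted p = 1.92e-07), where its median went from 1.49 to 0.663 TPM. At that level the added 1 TPM shrinks the change. In SKNAS PLXNB3 ran from 7.504 through 24.8 to 34.8 TPM and from 6.63 through 11.4 to 17.1 TPM, a change of -0.98 ± 0.15 (adjusted p = 7.88e-05, 12 of 13 pairs).

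PLXNC1, the SEMA7A receptor, was tested in SKNAS, where it ran from 0.0462 through 2.21 to 3.96 TPM in MYC-OFF and from 0.230 through 0.475 to 1.95 TPM in MYC-ON. Its change of -0.71 ± 0.22 (adjusted p = 0.0158, 10 of 13 pairs lower) was lost with the covariate, at -0.25. PLXND1 had medians of 44.3 and 48.4 TPM in SHEP and of 71.8 and 91.3 TPM in SKNAS. Its changes of 0.12 ± 0.032 and 0.45 ± 0.18 (adjusted p = 0.0510) were not called, the SHEP change for its size. With rescaling both became calls, at 0.17 in SHEP and 0.83 in SKNAS. The SHEP change was also called without replicate 2, at 0.16, and without the 7 low libraries the SKNAS change was 0.16 and not called.

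The neuropilins moved together in SHEP and apart in SKNAS. NRP1 ran from 130 through 167 to 194 TPM in SHEP MYC-OFF and from 42.7 through 56.2 to 82.1 TPM in MYC-ON, a change of -1.49 ± 0.050 (adjusted p = 4.34e-29) in 28 of 28 pairs. In SKNAS NRP1 ran from 17.0 through 60.6 to 100.3 TPM and from 5.20 through 11.9 to 33.2 TPM, a change of -1.92 ± 0.23 (adjusted p = 9.05e-06, 12 of 13 pairs), with -2.05 without the low libraries and -1.39 with the covariate. NRP2 ran from 114 through 150 to 174 TPM in SHEP MYC-OFF and from 73.0 through 102 to 126 TPM in MYC-ON. It fell there by 0.51 ± 0.046 (adjusted p = 1.44e-13) in 28 of 28 pairs. In SKNAS NRP2 ran from 0.157 through 1.42 to 3.62 TPM in MYC-OFF and from 5.89 through 10.3 to 35.03 TPM in MYC-ON. It rose by 2.50 ± 0.15 (adjusted p = 1.01e-08) in 13 of 13 pairs, and the lowest MYC-ON library was above the highest MYC-OFF library. The rise was 2.48 without the 7 low libraries, 2.77 with the covariate and 2.82 with rescaling. The lines differed by 3.01 ± 0.11 (adjusted p = 2.65e-31). After the rise NRP2 in SKNAS was still below every SHEP library, since no SKNAS library passed 35.03 TPM and none of SHEP fell under 73.0 TPM.

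**Figure D4:**
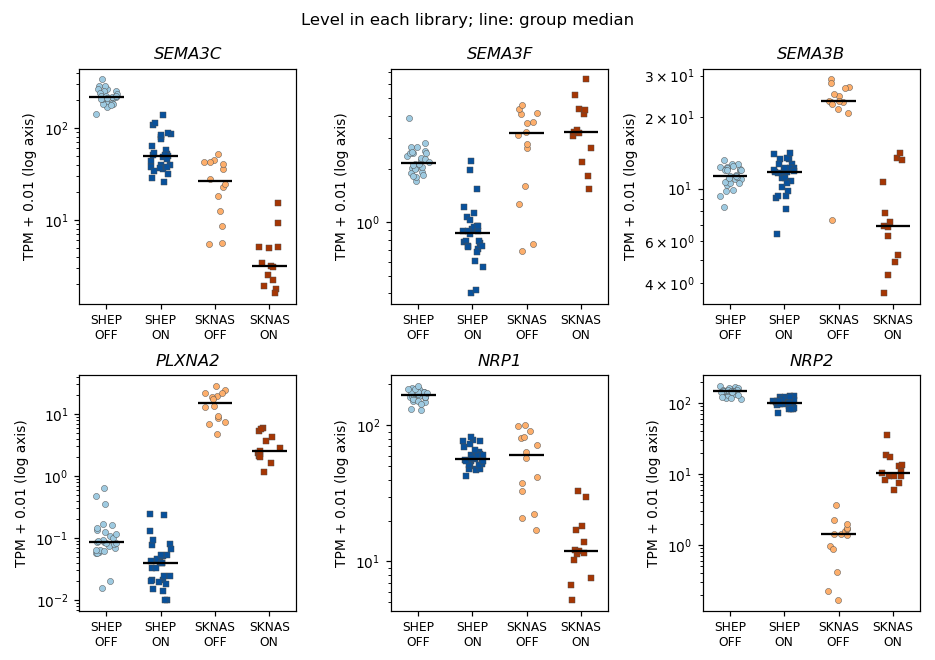
TPM in each library (TPM + 0.01, log axis) for 6 members in the 4 groups, with a black line at the median. SEMA3C and NRP1 sit lower in MYC-ON in both lines, SEMA3F does so in SHEP and SEMA3B in SKNAS, PLXNA2 is near 0 in SHEP, and NRP2 in SKNAS lies at 5.89 TPM or more in MYC-ON.

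The SHEP series also allowed changes over culture time to be measured, as the fitted line from CT24 to CT76. In MYC-OFF no member rose and 4 fell, where 5.56% and 9.81% of genes did. In MYC-ON 5 rose and 5 fell, where 19.9% and 37.3% did. The trends differed between the groups for 9 members, 5 higher and 4 lower in MYC-ON, where 16.1% and 27.3% of genes were so called. SEMA3C fell in both groups but further in MYC-ON, where the fitted change was -1.79 ± 0.13 (limma, adjusted p = 6.33e-12) against -0.64 ± 0.088 in MYC-OFF (adjusted p = 9.42e-06). It went from 264 and 339 TPM at CT24 to 185 and 205 TPM at CT76 in the MYC-OFF replicates. In the MYC-ON replicates it went from 108 and 139 TPM to 31.9 and 28.9 TPM, so that the MYC-ON libraries were already lower at CT24. The difference of the SEMA3C trends was -1.15 ± 0.16 (adjusted p = 3.84e-08).

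SEMA7A fell by 1.03 ± 0.15 in MYC-OFF (adjusted p = 1.43e-05) and changed by 0.39 ± 0.20 in MYC-ON, a difference of 1.42 ± 0.25 (adjusted p = 5.88e-06). In the MYC-OFF replicates it went from 111 and 137 TPM at CT24 to 56.8 and 54.9 TPM at CT76. In the MYC-ON replicates it went from 94.0 and 78.0 TPM through 50.04 and 45.4 TPM at CT48 to 113 and 88.9 TPM at CT76, so the order of the groups turned during the series. SEMA3E rose by 0.94 ± 0.11 in MYC-ON (adjusted p = 6.61e-08) with no call in MYC-OFF, a difference of 0.88 ± 0.19 whose call was lost without replicate 2. PLXNA1 fell by 0.66 ± 0.12 in MYC-ON (adjusted p = 3.53e-05) against a change of 0.20 ± 0.082 in MYC-OFF, a difference of -0.86 ± 0.15 (adjusted p = 3.33e-06). SEMA3E and PLXNA1 had no call for the mean over CT in SHEP, and their MYC-ON and MYC-OFF series crossed during the sampling. SEMA3A and SEMA4G rose in MYC-ON by 0.76 ± 0.16 and 0.87 ± 0.17, and PLXNA3 fell by 0.72 ± 0.21 in MYC-OFF, where its call was lost when either replicate was left out. SEMA5A fell by 0.58 ± 0.14 in MYC-OFF (adjusted p = 0.00526), a call lost in the same way. The other trends called in MYC-ON were rises of SEMA6C (0.57) and PLXNB2 (0.32) and falls of SEMA4F (-0.66), SEMA4B (-0.27) and NRP1 (-0.45).

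**Figure D5:**
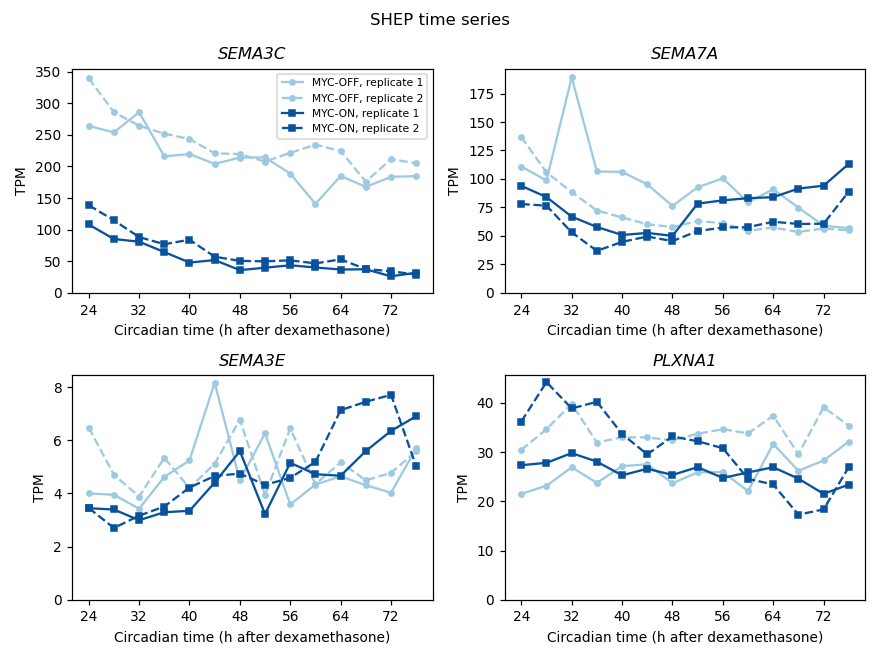
TPM of 4 members against circadian time (h after dexamethasone) in SHEP, with 1 line per replicate and group. SEMA3C is lower in MYC-ON at every CT, whereas MYC-ON ends above MYC-OFF for SEMA7A and below it for PLXNA1.

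No member had a 24 h rhythm at an adjusted p of 0.05 in any group, by an F-test of a 24 h cosine after a straight line was taken out. Over all genes the rule called 0.0905% with MYC-OFF and 0.0209% with MYC-ON in SHEP, and 0% in either SKNAS group, where 60 and 46 genes (0.432% and 0.331%) passed an unadjusted p of 0.05. These SKNAS shares lie below what that p gives with no rhythm at all. The lack of calls in SKNAS therefore says little about rhythms there. In SHEP so few genes were called that the lack of member calls says little there too. The study, whose method fitted the period, reported far more oscillating genes in SHEP MYC-OFF. At an unadjusted p of 0.05, 5 of 21 members passed in SHEP MYC-ON, namely SEMA3A, SEMA3E, SEMA7A, PLXNA1 and PLXNA3, where 1542 of 14362 genes (10.7%) did. None passed in the other 3 groups, where 10.4% of genes did so in SHEP MYC-OFF.

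The other genes of the pathway were read from lists, to be set beside all genes, of which 33% rose and 38.9% fell in SHEP (median -0.036) and 13.7% rose and 34.4% fell in SKNAS (median -0.29). Of 15 co-receptors and other ligands, 9 were tested in SHEP, where 2 rose and 6 fell with a median of -0.50, and 11 in SKNAS, where none rose and 7 fell with a median of -0.97. The integrin ITGA1 fell by 1.47 in SHEP and fell by 2.35 in SKNAS. VEGFA, a neuropilin ligand, rose by 0.41 in SHEP, and its 0.38 in SKNAS was not called. L1CAM, an adhesion molecule that joins NRP1 in the SEMA3A receptor, fell by 1.54 in SHEP and fell by 2.50 in SKNAS. Placental growth factor (PGF), a ligand of the vascular receptors that pair with neuropilins, rose by 0.60 in SHEP and fell by 2.26 in SKNAS. Of 33 cytoplasmic effectors, 29 were tested in each line, with 2 higher and 16 lower in SHEP (median -0.23) and none higher and 14 lower in SKNAS (median -0.58). RRAS, a small GTPase on which plexins act, fell by 1.49 in SHEP and fell by 1.44 in SKNAS. DPYSL3, a collapsin response mediator, fell by 0.23 in SHEP and fell by 1.64 in SKNAS, and its relative DPYSL4 changed by 0.12 in SHEP, not called, and fell by 1.45 in SKNAS. MICAL1, an enzyme that acts on actin downstream of plexins, changed by -0.99 in SHEP and by -0.38 in SKNAS, the latter not called. RAP1A and FARP2 rose by 0.27 and 0.18 in SHEP, and their 0.19 and 0.022 in SKNAS were not called. Of 42 genes of other guidance families, such as ephrins, netrins and slits, 21 were tested in SHEP, with 6 higher and 12 lower (median -0.24), and 19 in SKNAS, with 2 higher and 11 lower (median -0.76). EPHB6 and EFNB3 changed most downward in SHEP (-1.68 and -1.66) and EFNA3 and NTNG2 most upward (0.93 and 0.89). In SKNAS these were EPHA2 and EFNB3 (-2.08 and -1.97), and EPHA8 and EFNA3 (2.34 and 2.19).

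The markers moved too. Of the 10 adrenergic genes, 4 were tested in SHEP (2 higher, 1 lower) and 6 in SKNAS (1 higher, 5 lower), among them GATA3 at -1.88 and GATA2 at 1.70 in SKNAS. Of the 8 mesenchymal genes, 8 were tested in SHEP (1 higher, 5 lower) and 7 in SKNAS (1 higher, 3 lower), with FN1 at -2.24 and -1.76. The summed adrenergic level in SHEP ran from 45.8 to 66.3 TPM with MYC-OFF and from 72.02 to 100.03 TPM with MYC-ON. In SKNAS it ran from 276 to 719 TPM and from 178 to 933 TPM. The summed mesenchymal level ran from 3971 to 5295 TPM and from 3294 to 4885 TPM in the SHEP groups, and in those of SKNAS from 818 to 2191 TPM and from 673 to 2679 TPM. PHOX2A had a median of 0 in both SHEP groups. In such bulk samples fewer cells of a kind and less RNA per cell cannot be told apart, and the part of these markers in the members' changes was not tested.

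The silent members stayed low. SEMA3G had medians of 0.692 and 0.197 TPM in SHEP MYC-OFF and MYC-ON, and SEMA4A had 0.669 and 0.911 TPM. PLXNA4 had 0.357 and 0.125 TPM in the same groups. SEMA5B was listed at 0 in 26 of 28 libraries of either SHEP group and had medians of 0.236 and 0.0723 TPM in SKNAS.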

How the data were processed

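RNA-seq of poly(A) mRNA was deposited for 83 libraries. The authors quantified paired-end reads with Salmon 1.3.0 against Gencode transcripts and summed them to genes, and the deposited values are TPM. TPM corrects for length and library total and keeps no read counts, so the study's count model was not used, no counting interval could be given, and a change in abundant genes moves all others. Whether strand was used in counting is not given in the sources used here, so reads of overlapping and antisense genes cannot be told apart.

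TPM was taken to log2(TPM + 1), and genes with a mean of at least 1 TPM in a line, or in either line for comparisons between lines, were fitted with limma 3.58.1 in R 4.3.3, with CT as a factor and Benjamini-Hochberg adjustment over all genes tested. A call needed an adjusted p of at most 0.05 and a change of at least 0.15, and 1.5-fold was set at 0.66. Trends were linear over CT with the SHEP replicate as a block. SHEP replicates 1 and 2 were separate experiments shared by both conditions, and their deviations correlated across genes between MYC-OFF and MYC-ON (r = 0.489). The difference of MYC effects was fitted over both lines, with 1 spread per gene for both. The scripts were tested on simulated data.

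Members and lists were chosen with earlier results of these data known. A single marker of these lists is not reported here, and other markers are named beside their values. Every member with at least 1 TPM was named, with full values for those past 1.5-fold in either line or in the difference. Alternatives were an added 0.1 TPM, no filter or a mean of at least 5 TPM, median-of-ratios rescaling, the replicate block, series means, the library median as a covariate, and leaving out a replicate, a time point or the SKNAS libraries with a median under 3.3. Promoter sequences were RefSeq's and gene positions Gencode v44's, both on GRCh38.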

Additional observations from a re-analysis of the deposited data

Results flagged for a closer look

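A test of the difference itself (limma, SKNAS change minus SHEP change on the log2(TPM + 1) scale) called 14 of the 20 members tested in both. Of these, 3 were higher and 11 lower, where 10.7% and 38.7% of the genes tested in both lines were so called. That fit used 1 spread per gene for both lines, although SKNAS libraries varied more. Its SE fell under that of the SKNAS change alone for NRP2 (0.11 against 0.15), PLXND1 (0.12 against 0.18) and NRP1 (0.16 against 0.23). The same held for SEMA3F, SEMA3A, SEMA3B, SEMA3E, SEMA4B, SEMA4F (0.185 against 0.258) and PLXNB2, and barely for PLXNB3 (0.1481 against 0.1484). The SE did not fall under it for SEMA7A (0.19 against 0.16), SEMA4G and PLXNB1. Where it did, the adjusted p is likely too small. Of these calls, those with the largest adjusted p, NRP1 (0.022), PLXND1 (0.0167) and SEMA4F (0.0121), are uncertain. Whether the others hold with a spread for each line was not tested. The MYC effect was higher in SKNAS for NRP2 (3.01, adjusted p = 2.65e-31), SEMA3F (1.06, adjusted p = 6.26e-08) and PLXND1 (0.33, adjusted p = 0.0167). Among ligands it was lower for SEMA3A (-1.77), SEMA3B (-1.46), SEMA4G (-1.08), SEMA3E (-0.78), SEMA4B (-0.63), SEMA4F (-0.54) and SEMA7A (-0.48, adjusted p = 0.0308). Among receptors it was lower for PLXNB1 (-1.26), PLXNB3 (-0.48), NRP1 (-0.43) and PLXNB2 (-0.39). PLXNB3 had a mean of 1.15 TPM in SHEP and 18.4 TPM in SKNAS, so the added 1 TPM shrinks its SHEP change. No difference of the MYC effect is therefore read from its -0.48. A further 6 members passed the test while being tested in 1 line, so that the fitted value mostly carries the change in that line and shows no difference of the MYC effect. These values were 0.60 for SEMA6B, expressed in SHEP, and -1.81 for PLXNA2, -1.44 for SEMA6D, -1.09 for SEMA6A, -0.87 for SEMA3D and -0.44 for SEMA4D, expressed in SKNAS. SEMA6D was listed at 0 in every SHEP library, so its value is its SKNAS change.

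The change over culture time in SHEP differed between MYC-ON and MYC-OFF for 9 members (limma, fitted change from CT24 to CT76 in MYC-ON minus MYC-OFF). Of these, 5 were higher and 4 lower in MYC-ON, where 16.1% and 27.3% of all genes tested were so called. Nothing particular to the members is read from these counts. The change was higher in MYC-ON for SEMA7A (1.42, adjusted p = 5.88e-06), SEMA3E (0.88, adjusted p = 0.000159), PLXNA3 (0.83, adjusted p = 0.0221), SEMA4G (0.69, adjusted p = 0.0148) and SEMA3A (0.62, adjusted p = 0.0130). It was lower for SEMA3C (-1.15, adjusted p = 3.84e-08), PLXNA1 (-0.86, adjusted p = 3.33e-06), NRP1 (-0.45, adjusted p = 0.00968) and SEMA4C (-0.38, adjusted p = 0.0366). The 5 higher became 2 without replicate 1 and 3 without replicate 2, and the 4 lower became 5 and 3.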

How the results depend on the processing

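The SKNAS counts depended most on scaling. Against 1 member higher and 20 lower past 1.5-fold as deposited, rescaling gave 3 higher, 2 of them past 1.5-fold, and 11 lower past 1.5-fold, and the library-median covariate gave 4, 2 and 11. Leaving out a time point gave 1 to 2 higher. The covariate left 9 members lower in the difference between lines in place of 16 (6 in place of 11 among those tested in both). A mean of at least 5 TPM left 1 higher past 1.5-fold in place of 2, since SEMA3F lay under that mean in both lines. In SHEP the 3 members higher, SEMA3A, SEMA4G and SEMA5A, lay under a mean of 5 TPM, so that filter left 0 higher by removing them from the test. The count of 3 became 1 with series means and 1 to 2 without a replicate. The replicate block, which follows the pairing of the SHEP experiments, kept 3 higher and 13 lower and changed no call, and fits of the trends with no replicate block changed no count.

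Of the SHEP trends, rescaling gave 2 higher in MYC-OFF, 1 lower past 1.5-fold in MYC-ON and 8 higher in their difference. Without a replicate MYC-OFF had 2 to 2 lower and 1 to 2 past 1.5-fold, MYC-ON had 3 to 6 higher and 1 to 3 lower past 1.5-fold, and the difference had 2 to 3 higher, 2 to 3 past 1.5-fold, and 1 to 4 lower past 1.5-fold.

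Signs that turned belonged to changes not called as deposited, except the MYC-ON trend of SEMA4B and the difference between lines of NRP1. With rescaling these were SEMA3B in SHEP (0.040), SEMA5A in SKNAS (0.13), NRP1 (0.039) and SEMA4B (0.019) in the MYC-OFF trend, and PLXND1 (0.061) and SEMA6B (0.0027) in the trend difference. With the covariate they were SEMA5A (0.46) and PLXNA1 (0.30) in SKNAS, and SEMA3C (0.35), NRP1 (0.016), SEMA5A (0.11), PLXNA1 (0.27), PLXNA3 (0.36), PLXNC1 (0.057) and SEMA4C (0.21) in the difference between lines. Without a replicate SEMA3B in SHEP ran from -0.074 to 0.069, and without a time point SEMA5A in SKNAS ran from -0.18 to 0.066. MYC-OFF trends ran from -0.0075 to 0.0018 for NRP1, -0.17 to 0.12 for PLXNB3, -0.014 to 0.13 for SEMA3E and -0.0052 to 0.27 for SEMA6B. MYC-ON trends ran from -0.28 to 0.37 for NRP2, -0.045 to 0.26 for PLXNA3, -0.35 to 0.99 for PLXNB1, -0.59 to 0.16 for SEMA3B, -0.017 to 0.55 for SEMA3F, -0.58 to 0.040 for SEMA4B, -0.61 to 0.077 for SEMA4C, -0.48 to 0.13 for SEMA5A and -0.33 to 0.46 for SEMA6B. Trend differences ran from -0.13 to 0.38 for NRP2, -0.39 to 0.41 for PLXNB1, -0.72 to 0.076 for SEMA3B, -0.56 to 0.067 for SEMA4B and -0.32 to 0.20 for SEMA6B. The cause of these shifts was not tested.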
